A study of Mus musculus with 10 samples.

Results

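A set of 10 markers of cells that are foreign to the cortical neural lineage was followed through RNA sequencing of sorted embryonic mouse cortex cells. The markers are 10 of the 23235 gene symbols in each deposited table. They are 3 adult globin genes of red blood cells (Hba-a2, Hbb-b2 and Beta-s), 5 microglial genes (C1qa, C1qb, C1qc, Tyrobp and Fcer1g) and 2 choroid plexus genes (Ttr and Kl). They were picked by symbol, with their values in these same libraries known, so their levels and differences are given as a description and carry no test.

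The cells were cortical cells that took up a GFP plasmid with an shRNA by in utero electroporation at E13, and GFP-positive cells were sorted at E15. The new set has 3 Chd8 knockdown libraries and 3 control libraries (replicates 10, 11 and 12 of each), and the first set has 2 Chd8 knockdown libraries and 2 control libraries (replicates 1 and 2 of each). All groups carried an electroporated shRNA plasmid, and each library comes from a pool of several embryos of unstated strain and sex. The sets were deposited as separate tables, and the shRNA, the batch and the table change together between them and cannot be told apart. Chd8 encodes a chromatin remodelling helicase. Its level was 2.09, 1.84 and 1.92 FPKM in the new-set knockdown libraries, against 3.59, 3.30 and 4.02 FPKM in the controls (limma, log2 fold change -0.65 ± 0.12 SE, adjusted p = 0.0213). First-set levels were 8.55 and 9.23 FPKM in the knockdown libraries, against 12.4 and 13.8 FPKM in the controls (limma, log2 fold change -0.51, adjusted p = 0.152). FPKM is a read count scaled by transcript length and by library size.

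Red blood cells reach the embryonic cortex with its vessels and carry very large amounts of globin mRNA, which codes for the alpha and beta chains of haemoglobin. Microglia are the resident macrophages of the brain, which enter it from the yolk sac. C1q is the recognition part of the classical complement pathway, and Tyrobp (DAP12) and Fcer1g (the Fc receptor gamma chain) are membrane adaptors that pass on signals from receptors of myeloid cells. The choroid plexus is the epithelium that makes cerebrospinal fluid. It borders the cortex at the midline and secretes transthyretin (Ttr), a carrier of thyroid hormone and retinol-binding protein, and it makes Klotho (Kl), a co-receptor for FGF23. In bulk samples, fewer cells of a type and less RNA per cell cannot be told apart.

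The alpha globin copies are shown because reads of one cannot always be assigned to it rather than to the other. The first sequences are the 120 bases before the RefSeq start (GRCm38.p6) of Hba-a2 (chr11:32296372-32296491, plus strand), of its neighbour copy Hba-a1 (chr11:32283552-32283671, plus strand) and of Beta-s, listed there as Hbb-bs (chr7:103827929-103828048, minus strand). Capitals mark the CACCC box, the CCAAT box and a TATA-like box spelt ATATAA.
Hba-a2 promoter: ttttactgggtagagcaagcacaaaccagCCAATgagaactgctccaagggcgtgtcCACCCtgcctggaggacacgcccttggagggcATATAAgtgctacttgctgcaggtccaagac
Hba-a1 promoter: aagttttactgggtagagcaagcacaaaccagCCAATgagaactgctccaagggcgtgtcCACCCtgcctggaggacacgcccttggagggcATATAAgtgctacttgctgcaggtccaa
Beta-s promoter: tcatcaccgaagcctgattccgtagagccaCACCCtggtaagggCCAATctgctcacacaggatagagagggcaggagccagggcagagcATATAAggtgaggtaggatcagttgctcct
Each of the 3 windows holds 1 match to each motif. Both strands were searched, and the motifs do not overlap in these windows. Of 32851 promoter windows of the same length, 31.7% hold the CACCC box, 21.3% the CCAAT box and 4.47% the TATA-like box. The motifs were chosen after the windows had been read, and a match describes letters only. The longest run shared by the alpha windows was 117 of 120 bases.

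The 2 alpha coding sequences (GENCODE M21, 429 bases each) differ at 1 position, an identity of 99.8%. The stretch from base 351 to base 429, counted from 1 at the first coding base, holds that position in capitals.
Hba-a2 coding end: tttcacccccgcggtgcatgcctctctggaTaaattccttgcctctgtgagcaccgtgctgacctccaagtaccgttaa
Hba-a1 coding end: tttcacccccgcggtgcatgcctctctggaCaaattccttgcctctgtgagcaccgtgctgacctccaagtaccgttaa
A fragment that neither covers the capital base nor reaches a flanking difference cannot be assigned to 1 copy from these letters. Hba-a2 alone is therefore an uncertain measure, and the copies are also given as sums.

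In the new set, globin levels were, apart from Ttr in 1 library, the highest of the 10 members, and the 3 genes were lower in every knockdown library than in every control library. Of all 11291 genes tested there, 17.1% showed the same order. Hba-a2 had 45.4, 13.4 and 29.96 FPKM in the knockdown libraries, against 159.7, 196 and 53.1 FPKM in the controls. Knockdown 10 and control 12 were the nearest values, and the groups did not overlap. The log2 fold change was -2.12 ± 0.54 SE on the log2(FPKM + 1) scale, on which the change of a gene with low values comes out too small. By level, Hba-a2 ranked 593 in control 10 and 5738 in knockdown 11 among the 23235 symbols.

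Beta-s, an adult beta globin chain of the mouse s haplotype, had 59.9, 15.2 and 22.3 FPKM in the knockdown libraries, against 109, 147 and 75.5 FPKM in the controls (log2 fold change -1.92 ± 0.45 SE). Hbb-b2, a further adult beta globin, had 21.04, 4.75 and 5.77 FPKM in the knockdown libraries, against 42.1, 54.9 and 25.4 FPKM in the controls (log2 fold change -2.07 ± 0.49 SE). For both genes, knockdown 10 was the highest knockdown library and control 12 the lowest control, and the groups did not overlap. Every same-number pair of replicates went the same way: the knockdown to control ratio was 0.0684 to 0.564 for Hba-a2, 0.103 to 0.548 for Beta-s and 0.0864 to 0.499 for Hbb-b2.

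Summing near-identical copies gave the same order. Alpha globin (Hba-a1 plus Hba-a2) summed to 91.3, 17.9 and 39.1 FPKM in the knockdown libraries, against 159.7, 205 and 110.3 FPKM in the controls. Beta globin (Hbb-b1, Hbb-b2 and Beta-s) summed to 81.9, 19.97 and 28.1 FPKM in the knockdown libraries, against 151, 204 and 101 FPKM in the controls. Neither sum overlapped between the groups. The alpha sum averaged 49.4 ± 37.8 FPKM in knockdown libraries and 158 ± 47.4 FPKM in controls (SD, n = 3 each), a log2 fold change of -1.91, and the beta sum averaged 43.3 ± 33.7 FPKM in knockdown libraries and 152 ± 51.1 FPKM in controls (SD, n = 3 each), a log2 fold change of -1.99.

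**Figure D1:**
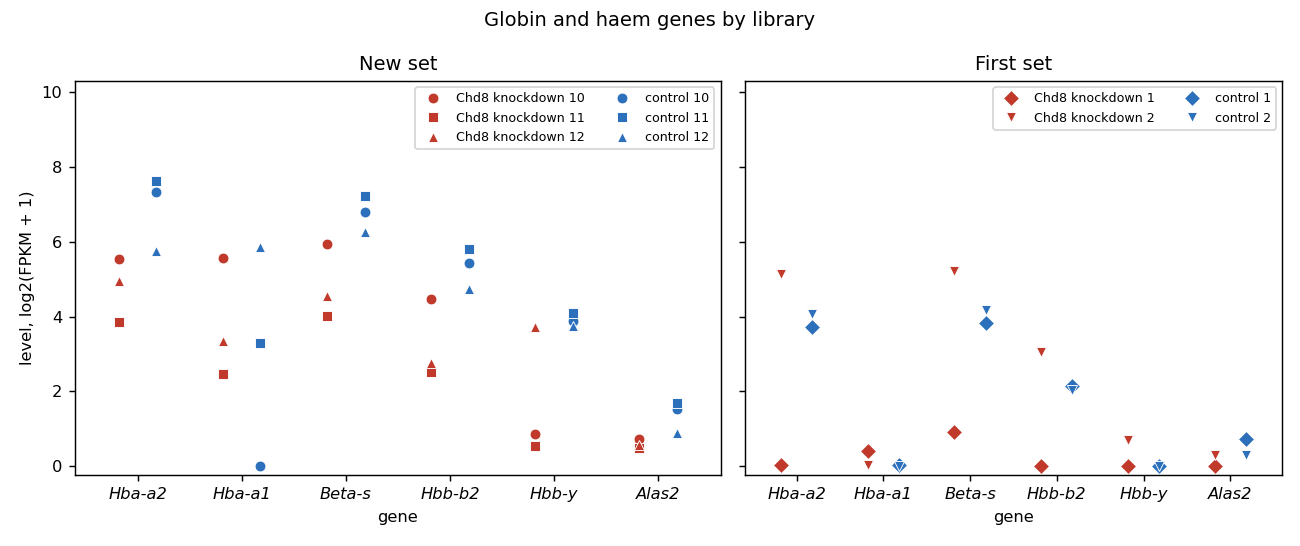
Levels as log2(FPKM + 1) of Hba-a2, Hba-a1, Beta-s, Hbb-b2, Hbb-y and Alas2 in every library, Chd8 knockdown left of control for each gene. In the new set all knockdown values lie below all control values except for Hba-a1, whose groups overlap. In the first set, for Hba-a2, Beta-s and Hbb-b2, knockdown replicate 1 lies below the other libraries and knockdown replicate 2 lies above both controls.

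The split between the alpha copies moved between libraries while their sum kept step with beta globin. Hba-a2 took 49.7%, 75.02% and 76.6% of the alpha sum in knockdown 10, 11 and 12, against 99.998%, 95.7% and 48.2% in control 10, 11 and 12. Hba-a1 was 45.9, 4.47 and 9.14 FPKM in the knockdown libraries, against 0.00345, 8.78 and 57.2 FPKM in the controls, and so overlapped. The alpha sum divided by the beta sum stayed between 0.729 and 1.39 in the 9 libraries of both sets with an alpha sum above 1 FPKM, a range over which the new-set alpha sum itself ran from 17.9 to 205 FPKM. Beta-s was 2.59 to 5.495 times Hbb-b2 in the same libraries.

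**Figure D2:**
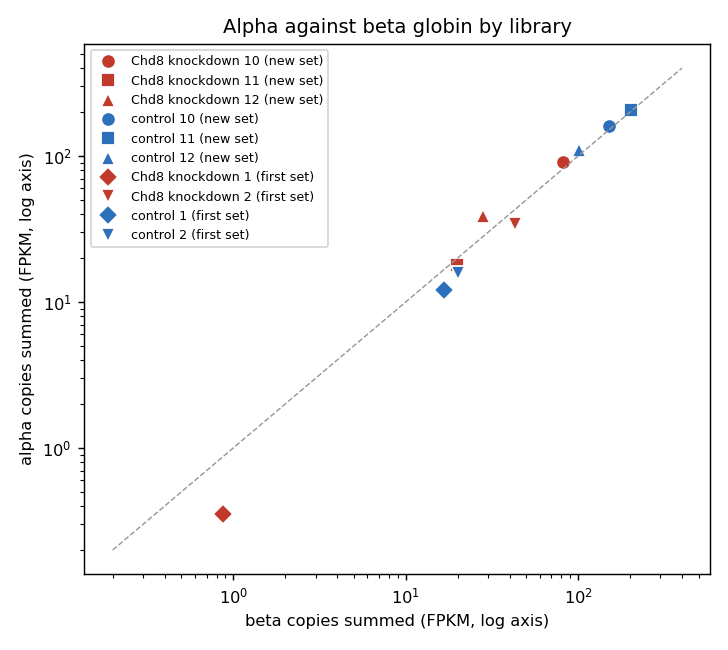
Summed alpha globin against summed beta globin FPKM (both axes log), 1 point per library, Chd8 knockdown in red and control in blue, with the line of equal sums. The 9 libraries above 1 FPKM lie near that line over an alpha range of 17.9 to 205 FPKM in the new set, and first-set knockdown 1 is the point at the lower left.

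The first set did not show the same order. Hba-a2 had 0.0234 and 34.2 FPKM in the knockdown libraries, against 12.1 and 15.7 FPKM in the controls. Beta-s had 0.875 and 35.9 FPKM in the knockdown libraries, against 13.2 and 17.1 FPKM in the controls. Hbb-b2 was listed at 0 in knockdown 1 and at 7.23 FPKM in knockdown 2, against 3.41 and 3.11 FPKM in the controls. Knockdown 1 was the lowest library and knockdown 2 the highest for all 3 genes, so the knockdown values enclosed both controls. The log2 fold changes, -1.30 ± 1.37 SE for Hba-a2, -0.95 ± 1.16 SE for Beta-s and -0.57 ± 0.84 SE for Hbb-b2, were each smaller than the error. Without knockdown 1 they became 1.254, 1.2003 and 0.9497, and without knockdown 2 they became -3.85, -3.10 and -2.09.

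Other red cell genes followed the adult globins in the new set only in part. Hbb-y, an embryonic beta-like globin, had 0.807, 0.454 and 12.1 FPKM in the knockdown libraries, against 13.6, 16.1 and 12.3 FPKM in the controls. The groups did not overlap, but knockdown 12 lay just under the lowest control, while its adult globins were well under those of every control. Alas2, the red cell form of the first enzyme of haem synthesis, had 0.662, 0.409 and 0.490 FPKM in the knockdown libraries, against 1.90, 2.22 and 0.866 FPKM in the controls (limma, log2 fold change -0.77 ± 0.21 SE, adjusted p = 0.0556). With replicate number as a block, its adjusted p was 0.0338. Gypc, a glycophorin of the red cell membrane, fell, at 1.15 ± 0.29 FPKM in knockdown libraries against 2.56 ± 0.53 FPKM in controls (SD, n = 3 each; limma, log2 fold change -0.73 ± 0.16 SE, adjusted p = 0.0336).

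Of 30 erythroid genes other than the members present in the tables, 6 passed the filter of a mean of at least 1 FPKM in the new set. Of these, 1 fell (Gypc), 0 rose and 5 did not pass the test, with 3 at an unadjusted p under 0.05. Their median log2 fold change was -0.32, against 0.02 over all 11291 genes tested, of which 8.99% changed at an adjusted p under 0.05 (5.15% fell and 3.84% rose). Without small RNA genes that split was 251 risen and 1020 fallen, against 434 and 581 with them. The Gypc call was lost without any 1 of the knockdown libraries or without control 10 or control 12 (adjusted p 0.069 to 0.0888). In the list of 14 haem and iron genes, 13 were tested and 1 fell: Tfrc, the transferrin receptor, which dividing cells also use, had 6.34 ± 0.83 FPKM in knockdown libraries against 11.1 ± 0.52 FPKM in controls (SD, n = 3 each; limma, log2 fold change -0.72 ± 0.12 SE, adjusted p = 0.0185). Its call was lost without knockdown 11 (adjusted p = 0.066), control 10 (0.0521) or control 12 (0.0501). With the replicate block, Alas2 and Ppox also fell (adjusted p = 0.0338 and 0.0378) and Alad and Uros rose (0.0402 and 0.0419).

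Erythroid genes other than globins differed among themselves in the first set. Rhag, a red cell ammonium channel, had 5.58 and 4.81 FPKM in the knockdown libraries, against 0.165 and 0.27 FPKM in the controls, and rose (limma, log2 fold change 2.35 ± 0.24 SE, adjusted p = 0.0014). Epb4.2, a red cell membrane skeleton protein, had 4.63 and 3.40 FPKM in the knockdown libraries, against 0.406 and 0.437 FPKM in the controls, and rose (limma, log2 fold change 1.81 ± 0.25 SE, adjusted p = 0.00311). Both were high in knockdown 1, where the globins were at or under 0.875 FPKM. They were the 2 that rose of 7 tested, with 0 fallen, where 23.8% of all 12461 genes tested in the first set changed (13.2% rose and 10.7% fell). Without small RNA genes 2112 rose and 633 fell, against 1639 and 1332 with them. Rhag and Epb4.2 had a control mean under 1 FPKM, as did 3 of the 7, and passed the filter through the knockdown values. The median log2 fold change of the 7 was -0.32, against -0.15 over all genes tested. Gypc (log2 fold change -0.56, adjusted p = 0.162), Bpgm (-0.55, adjusted p = 0.143) and Slc25a37 (-0.32, adjusted p = 0.353) were lower in every knockdown library without passing limma's test. The same order held for 40.4% of all genes tested there. Gata1, a transcription factor of red cell development, missed the filter, with 1.15 and 0.492 FPKM in the knockdown libraries and 0 listed in both controls. Other untested genes of the list went either way. Hemgn had 0.566 and 0.563 FPKM in the knockdown libraries, with 0 listed in both controls. Alas2 had 0 and 0.228 FPKM in the knockdown libraries, against 0.645 and 0.224 FPKM in the controls. The 75th percentile of the olfactory receptor genes described below was 0.694 and 0.533 FPKM in the knockdown libraries. Of the 13 haem and iron genes tested there, 3 rose (Cpox, Slc25a38 and Hmox1) and 1 fell (Urod).

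The first-set knockdown libraries also held low values for olfactory receptor genes, which are known for their use in the nose. Over 1096 such genes, the mean was 0.672 and 0.557 FPKM in the knockdown libraries, against 0.0036 and 0.00817 FPKM in the controls. The share of these genes above 0.01 FPKM was 55.1% and 49.2% in the knockdown libraries, against 1.37% and 6.02% in the controls. New-set means were at most 0.00162 FPKM and the shares at most 2.01% in all 6 libraries. The relative depth, read from the steps of the lowest values, was 0.525 times that of control 1 in each first-set knockdown library, against 1.22 times in control 2. New-set libraries lay between 0.953 and 1.39 times control 10. The part of these low values in the first-set results was not tested, and olfactory percentiles stand beside them below.

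Microglial members were near 1 FPKM in the new set, low beside the globins. C1qa had 1.07, 0.761 and 0.0826 FPKM in the knockdown libraries, against 1.13, 1.30 and 0.142 FPKM in the controls, and it missed the mean of 1 FPKM needed for a test. C1qb had 1.61, 1.18 and 0.296 FPKM in the knockdown libraries, against 1.41, 2.56 and 0.656 FPKM in the controls. C1qc had 1.55, 0.813 and 0.128 FPKM in the knockdown libraries, against 1.55, 2.35 and 0.734 FPKM in the controls. These genes are the 3 chains of C1q and lie beside each other on chromosome 4 in RefSeq, in the order C1qb, C1qc, C1qa. Replicate 12 was the lowest of its group for each chain, in knockdown and control alike, and the groups overlapped. The log2 fold changes were -0.17 for C1qa, -0.31 ± 0.33 SE for C1qb and -0.50 ± 0.33 SE for C1qc.

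Tyrobp and Fcer1g, adaptors of the same kind of receptor, parted in the new set. Tyrobp had 1.002, 0.835 and 0.479 FPKM in the knockdown libraries, against 1.98, 2.27 and 1.15 FPKM in the controls, and the groups did not overlap (log2 fold change -0.65 ± 0.19 SE). Fcer1g had 1.68, 1.202 and 0.543 FPKM in the knockdown libraries, against 1.10, 1.63 and 0.467 FPKM in the controls, and the groups overlapped (log2 fold change 0.06 ± 0.26 SE). Replicate 12 was again the lowest of each group for both. The same-number knockdown to control ratio was 0.367 to 0.507 for Tyrobp, below 1 in 3 of 3 pairs, and 0.736 to 1.53 for Fcer1g, below 1 in 1 of 3 pairs.

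The summed 5 microglial members were 6.91, 4.79 and 1.53 FPKM in the knockdown libraries, against 7.16, 10.1 and 3.15 FPKM in the controls. Among the 8 members tested in the new set, the groups did not overlap for 4, the globins and Tyrobp, each lower in every knockdown library. Over all genes tested there, every knockdown library was lower than every control for 17.1% and higher for 18.6%. The members were chosen with these contrasts known, so nothing is read from that count.

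**Figure D3:**
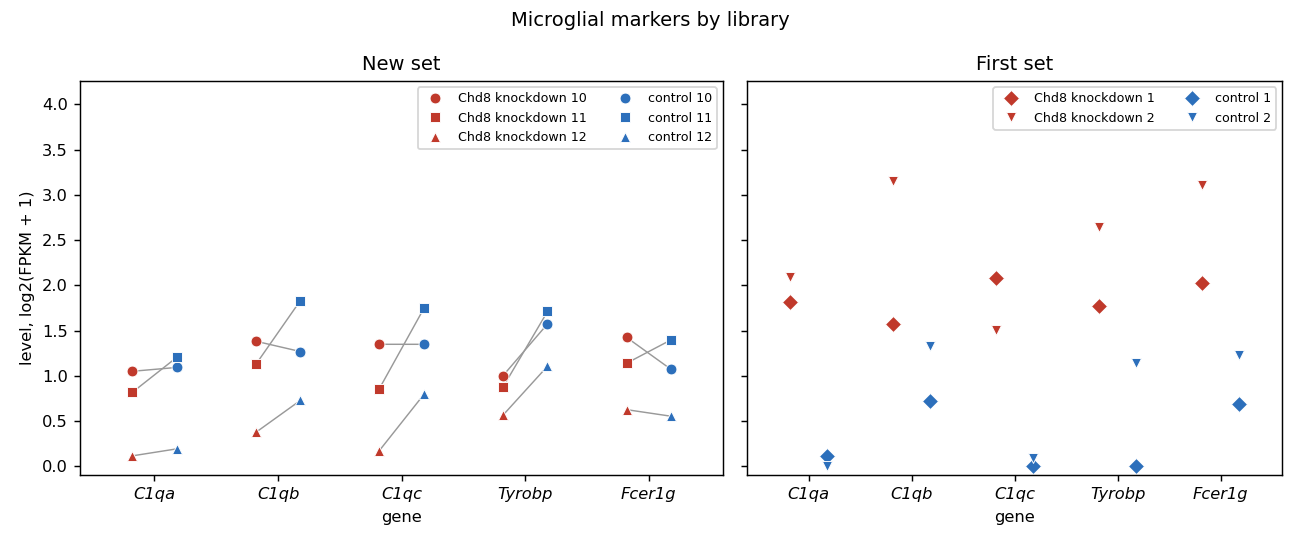
Levels as log2(FPKM + 1) of the 5 microglial members in every library, Chd8 knockdown left of control in each set. New-set groups overlap for C1qa, C1qb, C1qc and Fcer1g and replicate 12 is the lowest of each group, while in the first set all knockdown values lie above both controls.

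Every microglial member was higher in both first-set knockdown libraries than in both controls. C1qa had 2.52 and 3.27 FPKM in the knockdown libraries and was at 0.0792 FPKM and listed at 0 in the controls. C1qb had 1.97 and 7.91 FPKM in the knockdown libraries, against 0.649 and 1.51 FPKM in the controls. C1qc had 3.22 and 1.84 FPKM in the knockdown libraries and was listed at 0 and at 0.0662 FPKM in the controls. All knockdown values exceeded both controls for the 3 chains, but knockdown 2 exceeded knockdown 1 for C1qa and C1qb and not for C1qc.

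The adaptors behaved alike in the first set. Tyrobp had 2.43 and 5.26 FPKM in the knockdown libraries and was listed at 0 and at 1.21 FPKM in the controls. Fcer1g had 3.08 and 7.62 FPKM in the knockdown libraries, against 0.611 and 1.34 FPKM in the controls. Knockdown 2 was the highest library for both, and the groups did not overlap. Log2 fold changes over the 5 genes lay between 1.34 ± 0.51 SE (C1qb) and 1.90 ± 0.23 SE (C1qa), with 1.61 ± 0.40 SE for Fcer1g, 1.64 ± 0.44 SE for Tyrobp and 1.74 ± 0.27 SE for C1qc.

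These levels stood in the upper tail of the olfactory receptor genes of the same libraries. In knockdown 1, the share of olfactory receptor genes below each microglial member was 91.7% (C1qb) to 96.3% (C1qc), and in knockdown 2 it was 92.7% (C1qc) to 99.7% (C1qb and Fcer1g). The 95th percentile of those genes was 2.85 and 2.46 FPKM in the knockdown libraries, against 0 and 0.0634 FPKM in the controls. C1qa, C1qb and Tyrobp in knockdown 1 and C1qc in knockdown 2 therefore lay below that percentile. Subtracting the library's mean olfactory receptor level, an alternative chosen after the data had been seen, left C1qa at a log2 fold change of 1.65 and Tyrobp at 1.42. That mean (0.672 and 0.557 FPKM) lay below every microglial member in the knockdown libraries. Its subtraction could not bring any of them to 0, and nothing is read from it. Over the alternatives that kept every library, the lowest values of the remaining genes were 1.11 (C1qb), 1.47 (C1qc) and 1.44 (Fcer1g).

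**Figure D4:**
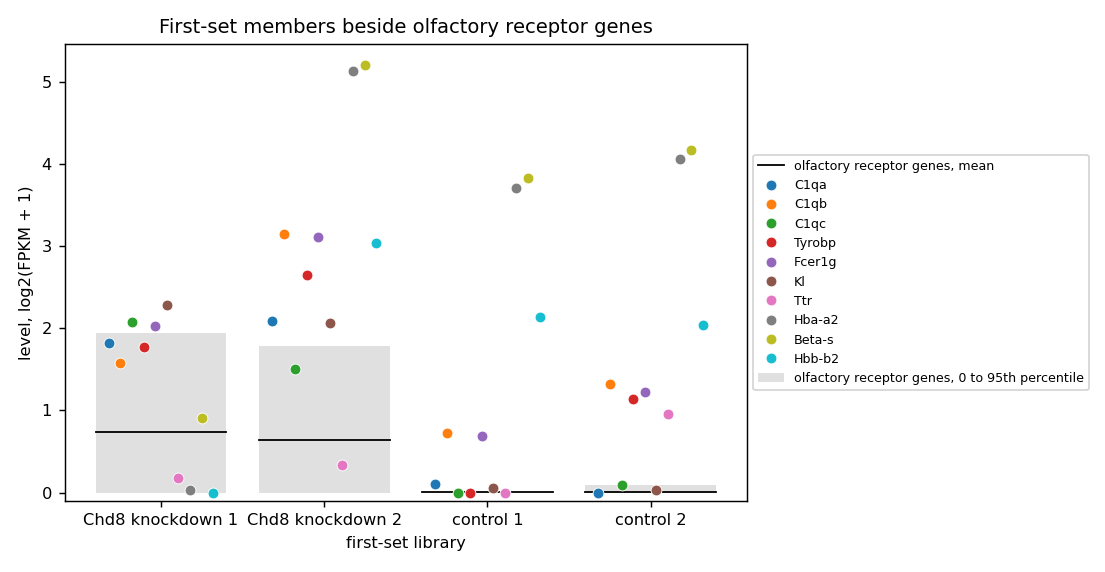
First-set levels as log2(FPKM + 1) of the members in the knockdown and control libraries. For 1096 olfactory receptor genes in the same libraries, a bar runs up to the 95th percentile and a line marks the mean. The microglial members and Kl sit near or above the 95th percentile in the knockdown libraries (2.85 and 2.46 FPKM), and Ttr sits within the bulk of the olfactory genes.

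Other microglial genes were read for the whole list of 44. The new set had 3 tested (Coro1a, Cyba and Lyz2) and limma called 0 changed, with 2 at an unadjusted p under 0.05. With the replicate block Coro1a rose (log2 fold change 0.46 ± 0.06 SE, adjusted p = 0.0115). Coro1a, an actin-binding protein that leukocytes use, was at 31.6 to 60.01 FPKM in every library of the new set and so is not a marker that separates microglia from this tissue. The 41 genes with a mean under 5 FPKM, a limit set after the values had been seen, summed to 12.1, 7.61 and 5.12 FPKM in the knockdown libraries, against 15.2, 14.3 and 7.05 FPKM in the controls, with replicate 12 again the lowest of each group. Cx3cr1, a chemokine receptor of microglia, was at 0.29, 0.254 and 0.105 FPKM in the knockdown libraries, against 0.281, 0.249 and 0.1 FPKM in the controls, close within each pair of the same number. Other untested genes of the list differed from it in both directions. Tmem119 averaged 0.258 FPKM in knockdown libraries and 0.559 FPKM in controls, without overlap, and Cd53 averaged 0.295 and 0.221 FPKM, with overlap. Cx3cr1 alone is therefore not read as the level of the list.

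Of the same 44 genes, 21 were tested in the first set, 11 rose (52.4%, against 13.2% of all genes), 0 fell and 10 did not pass the test. Their median log2 fold change was 1.10, against -0.15 over all genes tested. Of the 21, 16 had a control mean under 1 FPKM, so they passed the filter through the knockdown values. Those that rose were Cx3cr1, Trem2, Siglech, Ctss, Cd53, Fcgr3, Ly86, Rac2, Cybb, Cd84 and Hpgds. Cd84, a leukocyte adhesion receptor, had 13.6 and 11.6 FPKM in the knockdown libraries, against 1.13 and 0.832 FPKM in the controls (limma, log2 fold change 2.78 ± 0.26 SE, adjusted p = 0.00117). Lyz2, a lysozyme of macrophages, had 0.153 and 4.12 FPKM in the knockdown libraries and was listed at 0 and at 0.132 FPKM in the controls (limma, adjusted p = 0.189).

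The 41 low microglial genes summed to 54.9 and 76.2 FPKM in the first-set knockdown libraries, against 12.4 and 15.3 FPKM in the controls. Of these, 29 were above both controls in both knockdown libraries, and 26 were higher in knockdown 2 than in knockdown 1. Over all genes above 0 in a first-set library, every knockdown library was higher than every control for 39.1%. That share includes genes of high level and is not matched to the 41 low genes. Over all symbols, 80.9% and 78.9% were above 0.1 FPKM in the knockdown libraries, against 60.9% and 61.6% in the controls. Among the 716 olfactory receptor genes with a value in either knockdown library, 334 (46.6%) were higher in knockdown 2. Border macrophage genes (9 listed, 0 tested in either set) summed to 1.23 to 2.11 FPKM in new-set knockdown libraries against 1.46 to 2.28 FPKM in controls, and to 3.23 to 5.48 FPKM in first-set knockdown libraries against 0.591 to 0.777 FPKM in controls. The part of these lists in the first-set result was not tested.

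Genes that work with the microglial members were few at this level. In the new set, 4 of 21 complement genes were tested and 1 fell: Serping1, the inhibitor of the C1 complex, had 17.5 ± 1.39 FPKM in knockdown libraries and 23.5 ± 1.68 FPKM in controls (SD, n = 3 each; limma, log2 fold change -0.41 ± 0.10 SE, adjusted p = 0.0421). That call was lost without any 1 of the 6 libraries (adjusted p 0.0514 to 0.134). The first set had 6 tested, of which 3 rose (C5ar1, Cd59a and Cd93) and 1 fell (Masp1), where 13.2% of all genes rose and 10.7% fell. C5ar1 and Cd93 had a control mean under 1 FPKM. Serping1 was also lower in every first-set knockdown library (limma, log2 fold change -0.51 ± 0.23 SE, adjusted p = 0.145), as were 40.4% of all genes tested there. Of 22 adaptor partners, 0 passed the filter in the new set and 7 did so in the other, where 6 rose: the receptors Trem2, Siglech, Fcgr3, Fcgr4 and Clec4e, and the kinase Lyn. Of those 7, 6 had a control mean under 1 FPKM.

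Ttr set 1 library apart in the new set. It had 42.9 FPKM in knockdown 10, was listed at 0 in knockdown 11 and had 0.0716 FPKM in knockdown 12, against 0.0349, 0.0628 and 0.0309 FPKM in the controls. Knockdown 10 was high and the other 5 libraries were at or under 0.0716 FPKM, so the groups overlapped. The log2 fold change of 1.79 ± 1.27 SE became -0.01 without knockdown 10. In that library Ttr ranked 2563 of 23235 symbols. It was 1 of 6 genes there that exceeded 3 FPKM and 20 times every other new-set library, and the remaining 5 were microRNA or small nucleolar RNA genes (Mir3061, Snora17, Snora30, Snora33 and Snora64). Both thresholds were chosen after the values had been seen.

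Several other choroid plexus genes also had their highest value in knockdown 10, at lower levels. Folr1, a folate receptor, was at 0.645 FPKM in knockdown 10 and at most 0.057 FPKM in the other 5 libraries. Kcnj13, an inward rectifier potassium channel, was at 0.55 FPKM there and at most 0.112 FPKM elsewhere, and Kcne2, a potassium channel subunit, was at 0.595 FPKM there and at most 0.0247 FPKM elsewhere. Of 22 choroid plexus genes other than the members, 9 had their highest value in knockdown 10, 5 in knockdown 12, 4 in control 12, 2 in control 10 and 1 each in knockdown 11 and control 11. Of all 17542 genes above 0 in the new set, 9.95% had their highest value in knockdown 10. The 3 genes named above were chosen after their values were seen. The list summed to 10.6, 4.84 and 5.92 FPKM in the knockdown libraries, against 6.50, 5.70 and 5.02 FPKM in the controls. Only Enpp2, 1500015O10Rik and Car12 passed the new-set filter, and limma called 0 changed, with 0 at an unadjusted p under 0.05.

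Kl was not at this level in either group of the new set. It was listed at 0 in all 3 knockdown libraries, and at 0, 0.00663 and 0 FPKM in the controls, also in knockdown 10 where Ttr was high. First-set Kl had 3.88 and 3.18 FPKM in the knockdown libraries, against 0.0426 and 0.0233 FPKM in the controls (log2 fold change 2.13 ± 0.23 SE). Both knockdown values lay above both controls, and above 97.2% and 96.0% of olfactory receptor genes in the same libraries. Klb, a related co-receptor, was at 0.903 and 0.695 FPKM in the knockdown libraries, against 0.0216 and 0.0707 FPKM in the controls.

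Ttr was not high beside Kl in the first set. It had 0.129 and 0.257 FPKM in the knockdown libraries and was listed at 0 and at 0.944 FPKM in the controls (log2 fold change -0.23), and it missed the mean of 1 FPKM. Control 2 was the highest library and the groups overlapped. The negative sign rested on control 2, without which the log2 fold change became 0.25. In the knockdown libraries, 45.5% and 63.3% of olfactory receptor genes lay below Ttr. Of 7 choroid plexus genes tested there, 4 rose, where 13.2% of all genes did: Kcnj13, Prlr (the prolactin receptor), Calml4 (a calmodulin-like protein) and Wfikkn2 (a secreted protease inhibitor). Kcnj13 had 5.95 and 4.35 FPKM in the knockdown libraries, against 0.486 and 0.346 FPKM in the controls (limma, log2 fold change 2.11 ± 0.26 SE, adjusted p = 0.00226). Of those 7, 5 had a control mean under 1 FPKM. Enpp2 (-0.33, adjusted p = 0.48) and 1500015O10Rik (-0.23, adjusted p = 0.644) had negative log2 fold changes and did not pass limma's test. Ttr, the defining secreted product, was low where Kl and the genes that rose were high.

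**Figure D5:**
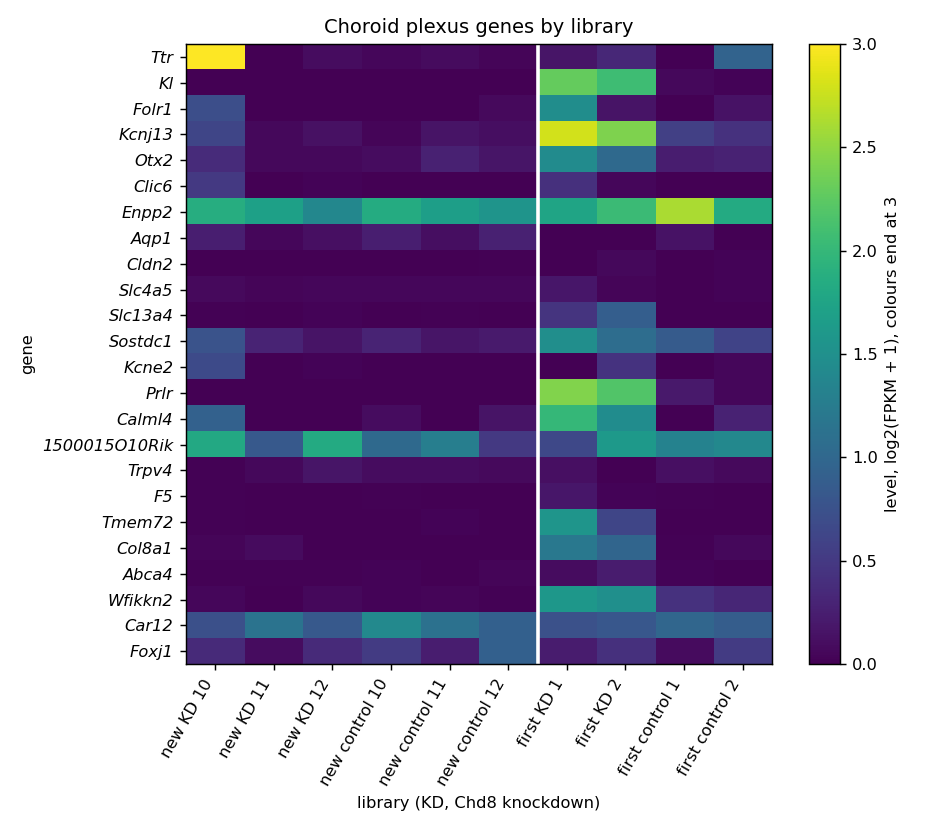
Levels of Ttr, Kl and the choroid plexus list in each library as log2(FPKM + 1), with Chd8 knockdown libraries left of controls in each set and colours ending at 3. Ttr stands out in knockdown 10 of the new set, whereas Kl, Kcnj13 and Prlr are high in both knockdown libraries of the first set and low in the other libraries.

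In the first set the groups did not overlap for 6 of the 9 members tested, the 5 microglial genes and Kl, each higher in every knockdown library. Over all genes tested there, every knockdown library was higher than every control for 27.4% and lower for 40.4%. As in the new set, the members were chosen with this contrast known and nothing is read from the count.

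Partners of Ttr and Kl showed no calls. Of thyroid hormone and retinol transport genes, the new set had 5 tested and the first set 7, and limma called 0 changed in each, with 1 and 0 at an unadjusted p under 0.05. Of the Klotho partners, the FGF receptors Fgfr1, Fgfr2 and Fgfr3 were tested in both sets and limma called 0 changed, with 0 and 1 at an unadjusted p under 0.05. With the replicate block Fgfr3 fell in the new set (log2 fold change -0.37 ± 0.09 SE, adjusted p = 0.0349).

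Other cells that could be present were checked with their own markers. Endothelial and pericyte genes had 3 tested in the new set, with 0 called by limma and 0 at an unadjusted p under 0.05, and 8 in the first set, of which 2 rose (Itm2a and Kcnj8), where 13.2% of all genes rose. Both had a control mean under 1 FPKM, as did 4 of the 8. Vessel genes summed to 9.34 to 14.3 FPKM in new-set knockdown libraries, against 9.34 to 14.1 FPKM in controls, so the sums overlapped. Single genes of that list did not all overlap: 6 of 24 (Emcn, Sox17, Cdh5, Pdgfrb, Kcnj8 and Abcc9) were lower in every knockdown library and 0 were higher, as against 14.9% lower and 13.6% higher of all genes above 0 in a new-set library. These 6 missed the filter, and Kcnj8, a pericyte potassium channel, averaged 0.164 FPKM in knockdown libraries and 0.495 FPKM in controls. The sums rested mostly on Egfl7 (2.94 to 4.71 FPKM over the new set) and, in knockdown 12, on Itm2a (4.63 FPKM). Cortical hem genes had 0 and 1 tested, meningeal genes had 0 tested in either set and platelet genes had 1 tested in each, with 0 called by limma and at an unadjusted p under 0.05 only the hem gene Lmx1a of the first set. First-set sums of several of these lists were higher in both knockdown libraries than in both controls: 2.98 and 3.89 FPKM in knockdown libraries against 0.973 and 1.03 FPKM in controls for the hem, 3.19 and 3.70 FPKM against 0.782 and 1.06 FPKM for the meninges, and 31.5 and 39.8 FPKM against 27.7 and 16.8 FPKM for vessels. Platelet genes summed to 5.27 and 4.63 FPKM in the knockdown libraries, against 2.13 and 4.61 FPKM in the controls. All 14 genes of the cortical lineage, among them Tubb3 and Neurod6, had a mean of at least 5 FPKM in both sets. They summed to 3591 to 4070 FPKM in new-set knockdown libraries against 2976 to 3164 FPKM in controls, and to 3161 to 3320 FPKM in first-set knockdown libraries against 4351 to 4791 FPKM in controls. In the new set 2 rose (Neurod6 and Dcx) and 4 fell (Emx2, Pax6, Sox2 and Neurog2). With the replicate block Emx1, Neurod2 and Tubb3 also rose and Nes fell. In the first set 4 fell (Pax6, Eomes, Neurod6 and Dcx).

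Zeros in these tables can be failed estimates. Tuba1a, an abundant neuronal tubulin, was listed at 0 in all 6 new-set libraries and at 3462 and 3393 FPKM in the first-set knockdown libraries, against 3651 and 2493 FPKM in the controls. Column totals ran from 539578 to 2066800 FPKM, and 729 small RNA genes took 6.52% to 68.2% of them. Without those genes, the median log2 fold change of the genes tested moved from 0.02 to -0.10 in the new set and from -0.15 to 0.03 in the first set, and no member whose groups did not overlap changed sign.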

How the data were processed

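RNA from sorted GFP-positive cells was sequenced in 10 libraries. The labels' protocols give an RNeasy Plus extraction and a Clontech low-input library kit, and the submitters' processing notes name TopHat2, Bowtie, Cufflinks 2.0.0, Cuffdiff and the build mm9. The authors deposited FPKM values in 2 tables, which were normalized separately. Annotation, read filters and strand use: not given in the sources used here. The files hold no counts, so absolute depth is unknown and no counting interval is given.

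Each table was fitted alone with limma 3.58.1 (R 4.3.3) on log2(FPKM + 1), for genes averaging 1 FPKM or more, with an intensity trend, two-sided tests and Benjamini-Hochberg adjustment over all genes tested. Genes with an adjusted p under 0.05 are said to rise or fall. The new set left 4 residual degrees of freedom and the first set 2. The fit was tested on simulated data. Members and the 14 marker and partner lists were chosen with earlier results of these data known. The named genes are the members, Chd8, list genes of high level or called in either table, and the 5 genes most like each member group. Some list genes outside this rule were named after their values had been seen, among them Gata1, Hemgn, Tmem119, Folr1, Kcne2, Emcn, Sox17 and Cdh5. Libraries are separate embryo pools, per the series' design text.

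New-set deviations from the group means correlated in all 3 same-number pairs (r = 0.122, 0.242 and 0.193). The main fit did not use this pairing, so its errors, adjusted p values and calls are unpaired. A fit with the replicate block is given as an alternative. First-set numbers did not pair (r = -0.0285). The alternatives were another pseudocount (0.1), no filter or a minimum of 5 FPKM, median-of-ratios rescaling, a replicate block, no trend, leaving out small RNA genes and leaving out each library. Summing globin copies and subtracting the olfactory receptor mean were chosen after seeing the data. Promoter windows and coding sequences come from RefSeq (GRCm38.p6) and GENCODE M21, and 6 of 10 members had a promoter entry. An earlier choice of motifs included the GATA motif AGATAA, which had no match, and was replaced.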

Additional observations from a re-analysis of the deposited data

Results flagged for a closer look

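Tyrobp moved in opposite directions in the sets: its log2 fold change was -0.65 in the new set, where every knockdown library lay below every control, and in the first set it was 1.64, where every knockdown library lay above every control. Kcnj8, a pericyte potassium channel, did the same, with a new-set value of -0.35 and a first-set value of 1.84. New-set Kcnj8 missed the filter, at means of 0.164 FPKM in knockdown libraries and 0.495 FPKM in controls. Of all genes tested, 17.1% were lower in every new-set knockdown library and 27.4% were higher in every first-set knockdown library. The share of genes with both orders was not counted. The difference between the sets was not tested for either gene. The first-set knockdown libraries also held olfactory receptor genes at a mean of 0.672 and 0.557 FPKM, against 0.0036 and 0.00817 FPKM in the controls, and the part of that in the difference was not tested.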

How the results depend on the processing

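Of 206 alternative member values, 196 moved by no more than the replicate spread, 10 moved by more and 0 of those whose groups did not overlap changed sign. Leaving out a library from a group of 2 or 3 cannot, by arithmetic, move a fold change by more than that spread. Nor can it change the sign where groups do not overlap, so the left-out values do not show stability. New-set Ttr moved from 1.79 to -0.01 without knockdown 10 and was still counted within the spread. The new-set globin fold changes lay between -2.70 and -1.52 on the log2 scale over all libraries left out in turn, and their sign was fixed by groups that did not overlap. The number of genes changed in the new set, 1015, was 470 without a filter on low values, 2452 with the replicate block (1012 shared) and 88 to 1883 without single libraries, lowest without knockdown 11 and highest without control 11. In the first set, 2971 became 1602 at a minimum of 5 FPKM and 713 to 1247 without single libraries. Marker list calls in the new set, 1, were 2 without a filter, 0 at a minimum of 5 FPKM, 3 with the replicate block, 3 without small RNA genes and 0 to 2 without single libraries. In the first set, 19 became 1 at a minimum of 5 FPKM and 9 to 18 without single libraries. That minimum tests fewer genes, and the cause of the other moves was not tested. With the replicate block the first set had 2719 calls, of which 2581 were shared, and its numbers did not pair. Of 475 alternative values for Chd8 and the list genes called in the main fit, 352 stayed on their side of the threshold and 123 were no longer called. A gene already called can only stay called or be lost, so this split does not describe the genes tested in general. Low values limit C1qa and Kl in the new set and Ttr in the first set, which missed the mean of 1 FPKM.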

Other observations

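Genes whose levels were most like each member group over the 6 new-set libraries were named by Pearson's r among 922 genes that spanned at least 1 log2 unit, as a description over libraries that share their groups and processing. Beside the globins stood Apoe (r = 0.97), a lipid carrier protein, with 11.8, 5.19 and 7.34 FPKM in the knockdown libraries, against 13.7, 15.3 and 11.1 FPKM in the controls, and then Hist1h3c, Mif4gd, Gm7334 and Rcn3 (r = 0.95 to 0.97). Beside the microglial members stood 4 histone genes and Rpph1, the RNA of RNase P. The nearest, Hist1h1a (r = 0.99), had 6.02, 4.25 and 1.77 FPKM in the knockdown libraries, against 5.90, 8.33 and 2.25 FPKM in the controls, with replicate 12 the lowest of each group, as for the microglial genes. Hist2h2bb, Hist1h4c and Hist1h2bl followed, and reads shared between near-identical histone copies make their values uncertain. Beside the choroid plexus members stood Mir3061, Snora17, Snora30, Snora33 and Snora64, each listed above 0 in knockdown 10 alone.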
